A study of Rattus norvegicus with 8 samples.

Results

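Subunits of the receptors for GABA and glutamate, the main inhibitory and excitatory transmitters of the brain, were compared between *substantia nigra* (SN) of rats given human α-synuclein (αSyn) by a viral vector and rats given an empty vector. The members were every gene whose probe on the array carries a RefSeq accession that belongs to a rat GABA-A subunit of the α, β, γ, δ, ε, π or θ type (16 genes), an AMPA (4 genes), NMDA (7 genes), kainate (5 genes) or delta (2 genes) glutamate receptor subunit, or a metabotropic glutamate receptor (8 genes). They made up 42 of the 16678 genes named on the array and 59 of its 45598 probes. The rule for membership uses gene names and accessions, and no measured value.

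The rats were adult female Sprague-Dawley animals, 3 months old at surgery, with no genetic modification. Each received adeno-associated virus (AAV) of serotype 6 by stereotaxic injection into the SN of 1 side. The AAV-αSyn vector carried the wild-type human αSyn transgene at a titre of 5.2e10 vector genomes per µL. The AAV-Null control vector carried no transgene, at 5.3e9 vector genomes per µL, so the groups differed in titre as well as in transgene, and their effects cannot be told apart. The promoter that drives the transgene, and so the cells that make it, is not given in the sources used here. At 20 weeks after surgery the SN of the injected side was dissected, and its RNA was labelled with Cy3 and hybridised to Agilent oligonucleotide arrays in 1 colour, 4 arrays per group. A probe gives a fluorescence intensity, printed below as the log2 of the normalized intensity, and a difference of 1 on this scale is a 2-fold change. Intensities of different probes depend on the probe as well as on the RNA, so levels are compared between arrays and never between genes.

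GABA-A receptors are chloride channels made of 5 subunits, most often of the α, β and γ types. Receptors with a γ subunit can cluster at synapses with gephyrin, whereas receptors that pair α4 or α6 with δ lie outside synapses and carry a slow tonic inhibition. In the SN, GABAergic input from the striatum and globus pallidus holds back both the dopaminergic neurons and the GABAergic output neurons of the pars reticulata. AMPA and kainate receptors carry fast excitation, NMDA receptors need glutamate and depolarisation together and admit calcium, delta receptors bind secreted cerebellins rather than working as ordinary glutamate channels, and metabotropic glutamate (mGlu) receptors act through G proteins. The subthalamic nucleus is the main source of glutamate to the SN.

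Of the 6 genes with an unadjusted call described below 4 were GABA-A genes, and their promoters are shown so that the windows of genes that were lower together can be compared. Each line is 300 bases of the RefSeq assembly GRCr8, from 250 bases before the annotated start of the gene to 50 after it, written 5′ to 3′ on the strand of the gene. Capitals mark a match on either strand to any of 6 motifs that were searched, which were the GC box GGGCGG, the EGR motif GCGNGGGCG, the CRE TGACGTCA, the E-box CAGCTG, the TATA box TATAAA and the TCF/LEF motif ATCAAAG. The GC box can overlap the EGR motif.

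Gabra4: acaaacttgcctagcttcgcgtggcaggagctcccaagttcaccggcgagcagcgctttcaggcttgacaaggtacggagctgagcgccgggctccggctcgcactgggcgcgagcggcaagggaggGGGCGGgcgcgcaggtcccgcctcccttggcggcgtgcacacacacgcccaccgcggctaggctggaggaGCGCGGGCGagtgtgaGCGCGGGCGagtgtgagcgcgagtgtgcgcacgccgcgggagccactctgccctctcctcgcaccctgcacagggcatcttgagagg
Gabrd: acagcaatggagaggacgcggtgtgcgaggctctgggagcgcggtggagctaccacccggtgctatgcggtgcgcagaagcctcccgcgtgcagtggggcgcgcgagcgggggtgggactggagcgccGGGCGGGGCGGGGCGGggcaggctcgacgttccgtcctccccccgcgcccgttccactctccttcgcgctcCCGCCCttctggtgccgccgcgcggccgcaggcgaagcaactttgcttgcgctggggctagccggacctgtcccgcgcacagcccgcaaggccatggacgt
Gabrg1: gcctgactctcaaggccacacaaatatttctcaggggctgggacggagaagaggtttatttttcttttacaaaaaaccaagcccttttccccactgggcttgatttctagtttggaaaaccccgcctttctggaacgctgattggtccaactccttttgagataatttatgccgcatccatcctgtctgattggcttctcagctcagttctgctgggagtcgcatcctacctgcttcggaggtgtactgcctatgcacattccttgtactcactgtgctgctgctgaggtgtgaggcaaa
Gabrg3: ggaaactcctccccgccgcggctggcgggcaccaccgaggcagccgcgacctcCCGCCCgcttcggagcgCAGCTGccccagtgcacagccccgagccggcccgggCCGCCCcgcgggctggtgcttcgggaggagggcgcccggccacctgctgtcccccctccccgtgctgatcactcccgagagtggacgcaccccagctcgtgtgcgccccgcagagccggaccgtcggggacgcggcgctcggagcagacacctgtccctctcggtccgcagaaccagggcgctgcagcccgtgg

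*Gabra4*, which encodes the α4 subunit, lies at chr14:36944497-36944796 on the plus strand, has a GC content of 70.7% in this window and holds 1 GC box and 2 EGR matches. *Gabrd*, which encodes δ, lies at chr5:171252660-171252959 on the minus strand with a GC content of 73.7% and 4 GC boxes. *Gabrg1* (γ1) lies at chr14:37750042-37750341 on the plus strand. Its window has a GC content of 48.7% and none of the 6 motifs. *Gabrg3* (γ3) lies at chr1:117382408-117382707 on the minus strand with a GC content of 76.7%, 2 GC boxes and 1 E-box. Of all 33469 RefSeq promoter windows of this length, 33.1% held a GC box, 4.98% an EGR match, 15.1% this E-box, 14.2% this TATA box, 3.63% this TCF/LEF motif and 1.83% this CRE. Among the 25 members with a window in the table, 10 held a GC box, 6 the E-box, 3 an EGR match, 1 the TATA box, 1 the TCF/LEF motif and 0 the CRE. A match is only a run of letters in the window. The windows of *Gabra4*, *Gabrd* and *Gabrg3* each hold a GC box. Since *Gabrg1* holds none of the motifs, no motif is common to all 4 windows.

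Of the 58717 non-control spots of an array, 74.8 to 77.5% were well above background, the median intensity was 282 to 294 in the AAV-Null and 261 to 338 in the AAV-αSyn group, and no spot was saturated. Markers of dopaminergic neurons were present on all arrays. *Th*, the rate-limiting enzyme of dopamine synthesis, was lower by 0.52 in the AAV-αSyn group (log2 fold change −0.52 ± 0.096 SE). The dopamine transporter *Slc6a3* had −0.79 and the decarboxylase *Ddc* −0.25, and 5 of the 9 dopaminergic markers tested were lower at an unadjusted p under 0.05, with a median of −0.38. Some markers of other regions differed too. Of 4 thalamic markers tested, 3 were lower at an unadjusted p under 0.05 (*Prkcd* −1.56, *Ntng1* −0.72, *Plekhg1* −0.66) and *Lef1* had −0.76 without a call. Of 3 glycinergic hindbrain markers 2 were higher, among them the glycine transporter *Slc6a5* (1.28, adjusted p = 0.0424 by limma). The other, *Hoxa4*, was above background on 2 arrays only and read 1.18 to 1.25 on the AAV-Null arrays. It was thus tested only through the group where it was higher. Of 5 serotonergic markers 2 were higher (*Tph2* 2.35, *Slc6a4* 2.30) and 1, the *Ddc* named above, was lower. Of 2 noradrenergic markers 1 was higher, *Dbh*, which was above background on AAV-αSyn arrays 2, 3 and 4 only. Of 6 cerebellar markers 1 was lower (*Zic1* −1.47), and the rest, among them *Pcp2* (−0.03) and *Car8* (−0.07), had no call. Of 5 markers of hippocampus and cortex 0 were called. None of the markers tested for astrocytes, oligodendrocytes, their precursors, microglia or the cells of vessels and blood reached an unadjusted p under 0.05. Of 8 pan-neuronal markers 1 was lower, of 7 GABAergic markers 1 was higher, and of 3 vesicular glutamate transporters none was called. The relation of some receptor genes to the thalamic markers is given below, and the part of any of these markers in the receptor values was not tested. The tissue is a mixture of cells, and fewer cells of a type cannot be told apart from less RNA of a gene in each cell.

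Most receptor genes differed little between the groups, and those that differed most were lower in the AAV-αSyn group. Of the members, 3 were above background on no array, namely *Gabra6*, whose α6 subunit belongs to cerebellar granule cells, *Gabre* (ε) and *Gabrp* (π). The other 39 genes were tested, through 56 probes, and 55 of these probes were above background on all 8 arrays. None of the 39 genes passed the adjustment over all 33853 probes tested, with a smallest adjusted p of 0.555 by limma. Over all probes tested 5 passed, or 0.0148%.

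At an unadjusted p under 0.05, 6 of the 39 receptor genes (15.4%) were lower in the AAV-αSyn group and 0 were higher, where 2.32% of all probes were lower and 3.31% higher. Among them were *Gabra4*, *Gabrd*, *Gabrg1*, *Gabrg3* and *Grik3*. The 4 arrays of one group lay entirely below those of the other for 3 of the 39 genes (7.69%), *Gabra4* and *Gabrg3* among them, all lower in the AAV-αSyn group, and this held for 1.26% of all probes with a value on every array. For no receptor gene did the AAV-αSyn arrays all lie above, which held for 2.57% of all probes. The log2 fold change was below 0 for 28 of the 39 genes (71.8%) against 47.6% of all probes. The median over the 39 genes was −0.03, where the median over all probes was 0.01, and 27 genes had an absolute log2 fold change under 0.2.

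**Figure D1:**
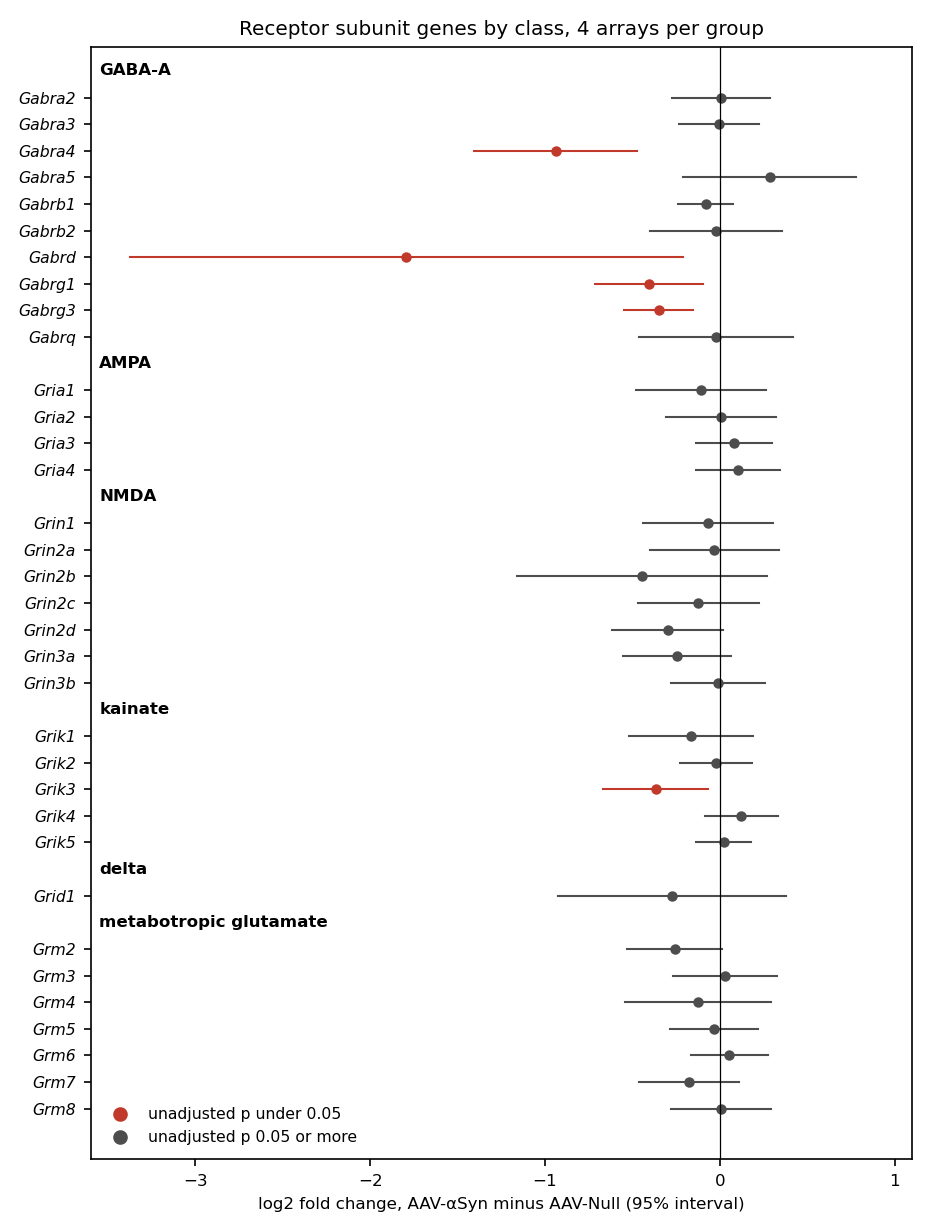
Log2 fold change (AAV-αSyn minus AAV-Null) of 34 of the tested receptor genes, 1 row per gene in blocks by receptor class, with the 95% interval from limma as a line. Red marks the 5 genes shown with an unadjusted p under 0.05, all to the left of 0, with *Gabrd* at −1.79 and *Gabra4* at −0.94 farthest out, and none of them passes the adjustment over all probes.

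GABA-A subunits held 4 of the 6 genes. Of the 13 tested, *Gabrd*, *Gabra4*, *Gabrg1* and *Gabrg3* were lower at an unadjusted p under 0.05 and the other 9 were not. The class median was −0.02, since most of its genes lay near 0, and the range ran from −1.79 to 0.29. With an array left out the median was −0.068 (without AAV-Null array 1) to −0.0081 (without AAV-αSyn array 2).

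*Gabra4* encodes α4, the partner of δ in receptors outside synapses of forebrain and thalamic neurons. Its intensity was 8.77, 9.39, 9.76 and 9.19 on AAV-Null arrays 1 to 4 and 8.47, 8.26, 8.51 and 8.11 on AAV-αSyn arrays 1 to 4. All 4 AAV-αSyn arrays lay below all 4 AAV-Null arrays, and the control arrays were the more spread. The means were 9.28 ± 0.41 and 8.34 ± 0.19 (SD, 4 arrays each), a log2 fold change of −0.94 ± 0.20 (SE) with a 95% interval of −1.41 to −0.47, or 1.92-fold lower. The unadjusted p was 0.00166 and the adjusted p 0.555 by limma, and the exact permutation test gave 0.0286, the smallest p that 4 against 4 arrays can give.

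*Gabrd*, which encodes δ, had the largest difference among the receptor genes and also the largest spread. Its intensity was 8.42, 10.81, 11.57 and 10.25 on AAV-Null arrays 1 to 4 and 7.95, 9.40, 8.96 and 7.56 on AAV-αSyn arrays 1 to 4. The groups overlapped, since AAV-Null array 1 lay below AAV-αSyn arrays 2 and 3. The means were 10.26 ± 1.34 and 8.47 ± 0.86 (SD), a log2 fold change of −1.79 ± 0.69 (SE) with a 95% interval of −3.37 to −0.21, or 3.46-fold lower. The unadjusted p was 0.0310 and the adjusted p 0.835 by limma, and the exact permutation p was 0.0857. The pooled SD within groups was 1.13, against a median of 0.189 over the receptor genes, and the call at an unadjusted p of 0.05 was lost when any of 5 arrays was left out (AAV-Null 2, 3 or 4, AAV-αSyn 1 or 4). Without AAV-Null array 3 the log2 fold change was −1.36.

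*Gabrg1* and *Gabrg3* encode γ1 and γ3, which are less common γ subunits. *Gabrg1* read 11.52, 11.55, 11.41 and 11.01 on the AAV-Null arrays and 10.94, 11.00, 11.13 and 10.81 on the AAV-αSyn arrays. AAV-Null arrays 1 to 3 lay above all AAV-αSyn arrays, and AAV-Null array 4 lay among them. The log2 fold change was −0.40 ± 0.13 (SE) with an interval of −0.71 to −0.10 (adjusted p = 0.76 by limma, exact permutation p = 0.0571). *Gabrg3* read 8.07, 7.99, 8.12 and 7.88 on the AAV-Null arrays and 7.60, 7.69, 7.56 and 7.80 on the AAV-αSyn arrays. These groups did not overlap, and both were narrow, with an SD of 0.10 each. Its log2 fold change was −0.35 ± 0.085 (SE), interval −0.55 to −0.15 (adjusted p = 0.60 by limma, exact permutation p = 0.0286). The other *Gabrg3* probe had −0.14 (p = 0.389 by limma, exact permutation p = 0.514). With the mean over both probes the value was −0.25 and the unadjusted call was lost.

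**Figure D2:**
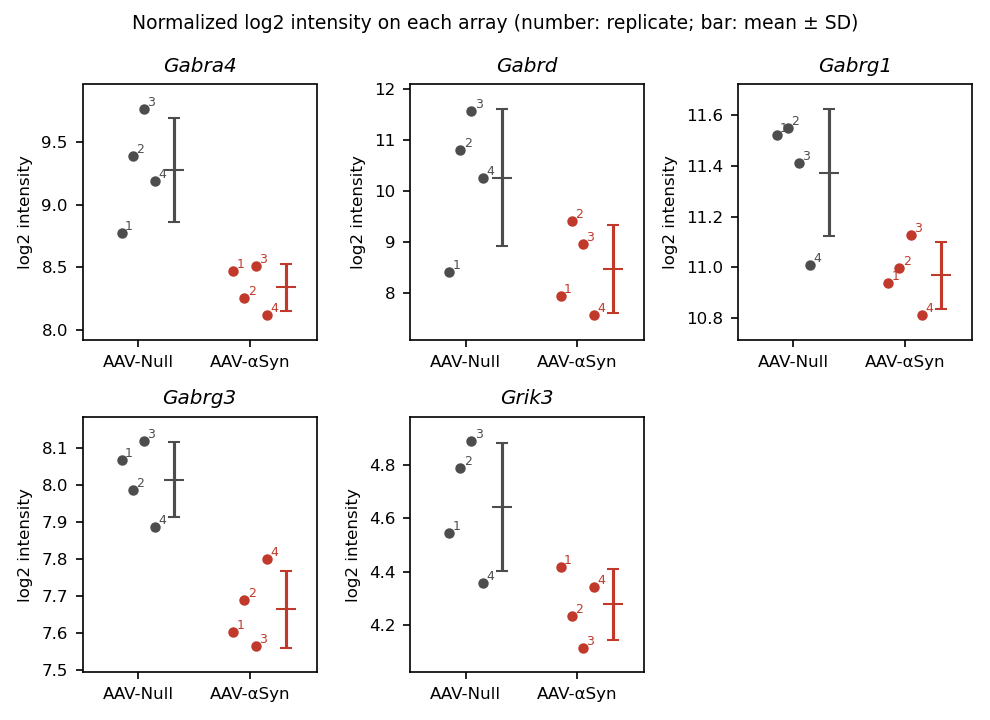
Normalized log2 intensity on each of the 8 arrays for 5 receptor genes with an unadjusted p under 0.05, 1 panel per gene, with points numbered by replicate and the bar at the mean ± SD of the group. The groups are apart for *Gabra4* and *Gabrg3* and overlap for *Gabrd*, *Gabrg1* and *Grik3*, and the vertical scale differs between panels and does not start at 0.

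Several other subunits lay near 0. *Gabra3*, the α3 subunit known from dopaminergic neurons, had an interval of −0.23 to 0.22 for the difference. The α2 gene *Gabra2* had −0.27 to 0.29. Of the β type, needed in nearly every receptor, *Gabrb1* had a log2 fold change of −0.08 and *Gabrb2* one of −0.02. The θ gene *Gabrq*, a subunit of monoaminergic nuclei, had −0.02 with the wider interval of −0.46 to 0.42. *Gabra5*, whose α5 subunit is best known outside synapses of the hippocampus, had the highest value of the class, 0.29 ± 0.22 (SE, p = 0.220 by limma, exact permutation p = 0.257). Its AAV-Null array 4 read 7.78 and the other 3 read 6.73 to 7.005, and without that array the log2 fold change was 0.51, with an unadjusted call of higher in the AAV-αSyn group, whereas it was 0.16 without AAV-Null array 3.

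Several GABA-A genes lie beside each other in the rat genome, and those with an unadjusted call had neighbours without one. In RefSeq's order on chromosome 14, *Gabrb1* (−0.08) is followed by *Gabra4* (−0.94), by 1 other protein-coding gene, and then by *Gabra2* (0.01) and *Gabrg1* (−0.40). On chromosome 1, *Gabrg3* (−0.35) lies beside *Gabra5* (0.29). The differences between neighbours were not tested.

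The signal of *Gabrd* followed that of the thalamic markers array by array. The thalamic list had 7 genes, of which *Prkcd*, *Plekhg1*, *Ntng1* and *Lef1* were measured on all 8 arrays, *Synpo2* was below background and *Tcf7l2* and *Rora* had no named probe. *Prkcd*, the kinase gene of thalamic relay neurons, read 10.96, 12.94, 13.54 and 12.48 on the AAV-Null arrays and 10.65, 11.58, 11.21 and 10.22 on the AAV-αSyn arrays. As with *Gabrd*, AAV-Null array 1 lay among the AAV-αSyn arrays. The mean deviation of the 4 thalamic genes from their own means was −0.46 to 1.23 in the AAV-Null and −0.83 to −0.10 in the AAV-αSyn group, and AAV-Null array 1 was the 1 control array within the AAV-αSyn range. *Zic1* of the cerebellar list read 8.67, 10.07, 10.68 and 9.88 on the AAV-Null and 8.18, 9.21, 8.35 and 7.69 on the AAV-αSyn arrays. Its AAV-Null array 1 also lay among the AAV-αSyn arrays. The mean deviation of the 17 scaffold genes described below was −0.12 on AAV-Null array 1, within the AAV-αSyn range of −0.18 to 0.0020. No list but the thalamic one was correlated with receptor genes, so whether the relation is particular to it was not tested.

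Over the 8 arrays the correlation of *Gabrd* with this thalamic score was r = 0.988 (exact permutation p = 2.48e-05, adjusted over 10 genes 0.000248) and rho = 1 (exact permutation p = 4.96e-05, adjusted 0.000496). Without the arrays farthest from the median score, AAV-Null 3 and AAV-Null 2, r was 0.978, and r was 0.978 between deviations from the group means, which leave out the difference between groups. *Gabra4* had r = 0.924 (exact permutation p = 0.00203, adjusted 0.0102) and rho = 0.833 (exact permutation p = 0.0154, adjusted 0.0769), with r = 0.754 without those 2 arrays and 0.880 between deviations. *Grm2* had r = 0.812 (exact permutation p = 0.0139, adjusted 0.0465) and rho = 0.762 (exact permutation p = 0.0368, adjusted 0.123), with r = 0.897 without those 2 arrays and 0.649 between deviations. The other 7 of the 10 genes had adjusted p of 0.101 to 0.866 for r by the exact permutation test. *Gabrg3* and *Gabrg1* had r of −0.060 and 0.013 between deviations from the group means. The 10 genes were the 6 with an unadjusted call together with *Gria1*, *Grin2b*, *Grid1* and *Grm2*, which had the largest difference in their classes. All 10 were thus chosen by their difference between the groups, and thalamic markers differed as well. The permutations moved arrays across groups, so a shared group difference can by itself lower these p values. No permutation test was run on the deviations from the group means. Whether the amount of thalamic RNA accounts for the lower *Gabrd* and *Gabra4* values in the AAV-αSyn group was not tested.

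**Figure D3:**
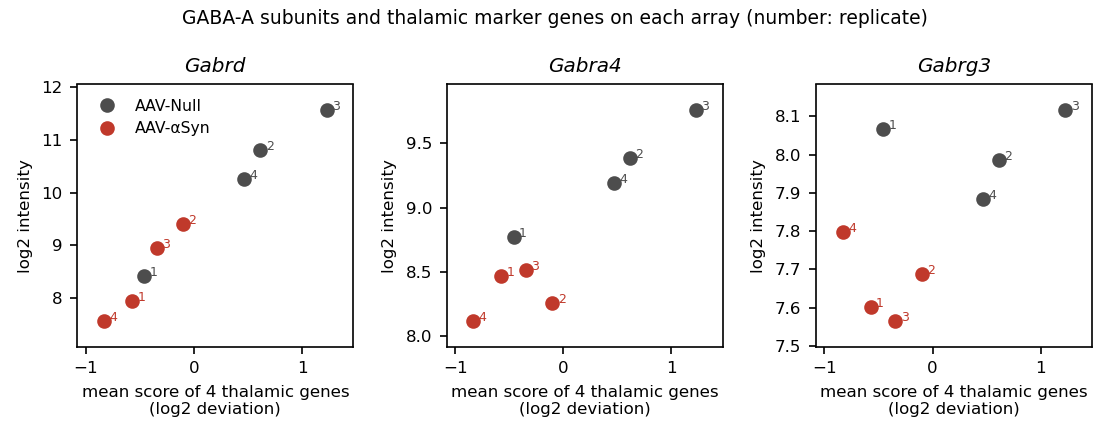
Log2 intensity of *Gabrd*, *Gabra4* and *Gabrg3* on each array (vertical) against the mean log2 deviation of the 4 thalamic marker genes (horizontal), with AAV-Null arrays in grey, AAV-αSyn arrays in red and numbers for replicates. *Gabrd* rises with the score across both groups (r = 0.988) and *Gabra4* likewise (r = 0.924), and *Gabrg3* has r = 0.608.

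AMPA receptor subunits showed no call in either direction. All 4 genes were tested, 3 had positive values, and the class median was 0.05, with a range of −0.0052 (without AAV-Null array 3) to 0.12 (without AAV-Null array 4) when an array was left out. *Gria1* (GluA1) had the value farthest from 0. Its intensity was 10.33, 10.30, 10.37 and 10.06 on the AAV-Null arrays and 9.80, 10.01, 10.27 and 10.55 on the AAV-αSyn arrays. The AAV-αSyn arrays spanned the whole control range and beyond. The difference was −0.11 ± 0.16 (SE, p = 0.530 by limma, exact permutation p = 0.514), and 0.012 without AAV-αSyn array 1. *Gria2*, whose GluA2 subunit keeps calcium out of the channel, had an interval of −0.31 to 0.32, *Gria3* one of −0.14 to 0.30 and *Gria4* one of −0.14 to 0.35.

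None of the NMDA receptor subunits reached an unadjusted p under 0.05. All 7 values were below 0, of which those of *Grin1*, *Grin2a* and *Grin3b* turned above 0 in at least 1 processing alternative. They ranged from −0.44 to −0.01 with a median of −0.12, which was −0.24 without AAV-Null array 4 and −0.062 without AAV-Null array 3. *Grin1*, the obligatory GluN1 subunit, had −0.07 ± 0.16 (SE) and an interval of −0.44 to 0.30. *Grin2b* (GluN2B) read 6.04, 6.40, 7.08 and 6.17 on the AAV-Null arrays and 5.19, 6.09, 6.39 and 6.23 on the AAV-αSyn arrays. AAV-αSyn array 1 lay below all other arrays and AAV-Null array 3 above them, and the rest lay between 6.04 and 6.40. The value was −0.44 ± 0.31 (SE, p = 0.189 by limma, exact permutation p = 0.371). It was −0.18 without AAV-αSyn array 1, −0.23 without AAV-Null array 3, and −0.23 with normexp background correction and with array weights. *Grin2d*, whose GluN2D subunit is found in the adult midbrain and diencephalon, had −0.30 ± 0.14 (SE, p = 0.0629 by limma, exact permutation p = 0.0571). *Grin3a*, a GluN3 subunit that lowers calcium entry, had −0.25 ± 0.13 (SE, p = 0.105 by limma, exact permutation p = 0.171) and its dimmer probe −0.43 ± 0.13 (SE, p = 0.00938 by limma). *Grin2d* gained an unadjusted call without AAV-Null array 4 (−0.40) and had −0.18 without AAV-Null array 3. It also gained one with normexp background correction (−0.29), an intensity trend (−0.30) and array weights (−0.31), whereas its second probe had −0.12 and the mean over both probes was −0.21, neither with a call. *Grin3a* gained one without AAV-αSyn array 3 (−0.35) and with the mean over its probes (−0.34), and had −0.15 without AAV-αSyn array 1. The GluN2A gene *Grin2a* had an interval of −0.40 to 0.34, the GluN2C gene *Grin2c* one of −0.47 to 0.22 and *Grin3b* one of −0.28 to 0.26.

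Among kainate receptor subunits, *Grik3* (GluK3) was lower at an unadjusted p under 0.05 and the other 4 were not. *Grik3* was a dim probe, above background on all 8 arrays, that read 4.54, 4.79, 4.89 and 4.36 on the AAV-Null arrays and 4.42, 4.23, 4.12 and 4.34 on the AAV-αSyn arrays. AAV-Null array 4 lay between AAV-αSyn arrays 4 and 1, and the other controls lay above every AAV-αSyn array. Its log2 fold change was −0.37 ± 0.13 (SE, p = 0.0231, adjusted p = 0.815 by limma), with an exact permutation p of 0.0571. The unadjusted call was lost without AAV-Null 2 or 3 or AAV-αSyn 2 or 3, and normexp background correction gave −0.14. *Grik1* (GluK1) had −0.16, *Grik2* (GluK2) −0.02, *Grik4* (GluK4) 0.12 and *Grik5* (GluK5) 0.02, and the interval of *Grik5* was −0.14 to 0.18. *Grik1* gained an unadjusted call without AAV-αSyn array 3 (−0.30) and had −0.042 without AAV-αSyn array 1. *Grik4* gained one without AAV-Null array 3 (0.20) and had 0.075 without AAV-Null array 4.

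The delta receptor gene *Grid1*, whose GluD1 protein joins cerebellins across the synapse, had no call. It read 7.004, 7.12, 8.29 and 6.97 on the AAV-Null arrays and 6.92, 7.12, 7.22 and 7.02 on the AAV-αSyn arrays. AAV-Null array 3 stood above the other 7 arrays, which spanned 6.92 to 7.22. The log2 fold change was −0.27 ± 0.28 (SE, p = 0.361 by limma, exact permutation p = 0.714) with that array and 0.039 without it.

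Among mGlu receptors, *Grm5*, a group I receptor that raises calcium through phospholipase C, had −0.03 with an interval of −0.29 to 0.22. *Grm2*, a group II receptor that lowers transmitter release, read 10.59, 10.85, 10.91 and 11.09 on the AAV-Null arrays and 10.64, 10.59, 10.73 and 10.44 on the AAV-αSyn arrays. Only AAV-Null array 1 lay among the AAV-αSyn arrays, and the log2 fold change was −0.26 ± 0.12 (SE, p = 0.0577 by limma, exact permutation p = 0.0857). Without AAV-Null array 1 it was −0.35, with an unadjusted call. Cyclic loess (−0.28), normexp background correction (−0.25), an intensity trend (−0.26) and the side of the slide as a block (−0.26) also gave one. The second *Grm2* probe, a dim one, had −0.52, and the mean over both probes was −0.39, without a call. *Grm3*, the other group II receptor and one that astrocytes also make, had 0.03. The group III receptors *Grm4*, *Grm6*, *Grm7* and *Grm8*, most of them on presynaptic endings, ranged from −0.18 (*Grm7*, −0.061 without AAV-αSyn array 1) to 0.05 (*Grm6*).

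**Figure D4:**
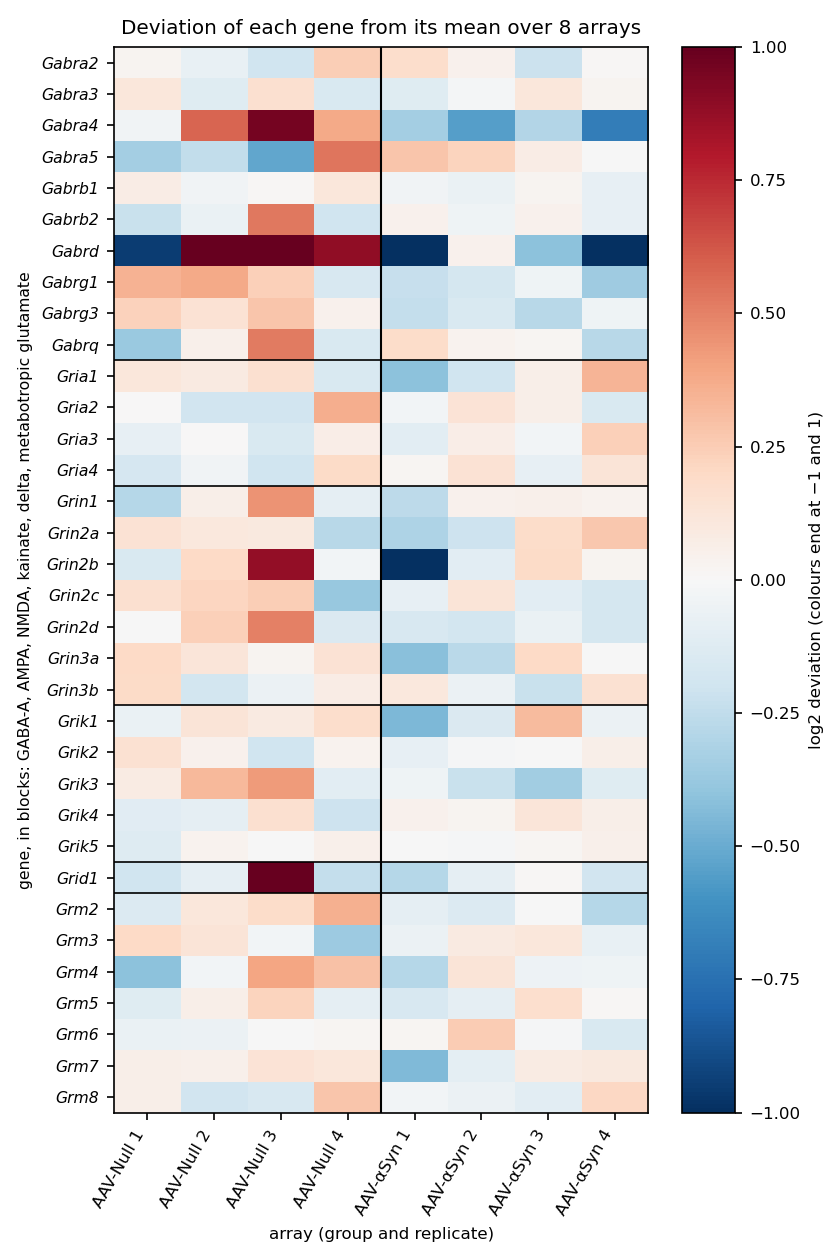
Deviation of each of 34 tested receptor genes (rows, in blocks by class) from its own mean over the 8 arrays (columns, AAV-Null left of the line and AAV-αSyn right), in log2 units with the colours ending at −1 and 1. *Gabra4* is above its mean on 3 of the 4 AAV-Null arrays and near it on the first, *Gabrd* varies most within both groups, and AAV-Null array 3 carries the high values of *Grid1* and *Grin2b*.

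For the genes that differed little, the intervals set how large a difference could have gone unseen. The log2 fold change was smaller than its SE for 24 of the 39 genes. For 18 of these 24 the whole 95% interval lay between −0.4 and 0.4. Where a gene had several tested probes (15 genes), they had the same sign in 9, and among the 6 with opposite signs the largest gap between probes was 0.18. The arrays lay on 1 slide, and each side of the slide held 2 arrays per group. Within the sides the log2 fold changes were −0.80 and −1.08 for *Gabra4*, −2.08 and −1.51 for *Gabrd*, −0.25 and −0.56 for *Gabrg1*, −0.35 and −0.35 for *Gabrg3* and −0.31 and −0.43 for *Grik3*. With the side as a block these 5 genes kept their unadjusted call.

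None of the genes tested for proteins that place, assist or scaffold these receptors passed the adjustment. Of 58 such genes in 6 lists 52 were tested, 7 (13.5%) were lower at an unadjusted p under 0.05 and 1 (1.92%) was higher, where 2.32% of all probes were lower and 3.31% higher, and their median was −0.09. Among the 12 GABA-A clustering and trafficking genes, *Lhfpl4*, needed to bring GABA-A receptors together with neuroligin 2, was lower by 0.30 (log2 fold change −0.30 ± 0.10 SE), whereas gephyrin (*Gphn*) had 0.07 and neuroligin 2 (*Nlgn2*) −0.09, neither with a call. The GABA-B subunit gene *Gabbr2* had −0.29 ± 0.11 (SE) and *Gabbr1* −0.16 (p = 0.0830 by limma, exact permutation p = 0.0571). The ρ genes *Gabrr1*, *Gabrr2* and *Gabrr3*, best known from the retina, were below background.

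*Shisa6*, an auxiliary protein of AMPA receptors, had −0.45 ± 0.13 (SE) through a dim probe that was above background on all 8 arrays. It read 4.37 to 4.66 in the AAV-Null and 3.76 to 4.30 in the AAV-αSyn group. The lowest log2 intensity above background was 2.51 to 3.50 over the arrays. *Nsf*, the fusion ATPase that also binds GluA2, was the partner gene called higher, with 0.24 ± 0.097 (SE, p = 0.0360 by limma, exact permutation p = 0.0286). *Grip1*, of the same list, had 0.26 with all AAV-αSyn arrays above all AAV-Null arrays but no call (p = 0.0561 by limma, exact permutation p = 0.0286). For 4 partner genes (7.69%) the AAV-αSyn arrays all lay below, and for 2 (3.85%) above, against 1.26% and 2.57% of all probes. *Cbln2*, a secreted ligand of delta receptors, had −0.51 ± 0.20 (SE), with 13.10 to 13.54 in the AAV-Null and 12.23 to 13.12 in the AAV-αSyn group. Of the 17 scaffold genes of the postsynaptic density 3 were lower. *Homer2*, which ties group I mGlu receptors to internal calcium stores, read 9.17, 9.41, 9.43 and 9.09 on the AAV-Null arrays and 8.71, 8.76, 8.96 and 8.80 on the AAV-αSyn arrays, with no overlap and −0.47 ± 0.10 (SE, p = 0.00193, adjusted p = 0.588 by limma, exact permutation p = 0.0286). *Shank3* had −0.47 ± 0.19 (SE) and the kinase gene *Camk2a* −0.52 ± 0.21 (SE), both with overlapping groups. The scaffold gene *Dlg4* (PSD-95) had 0.0089 ± 0.13 (SE).

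**Figure D5:**
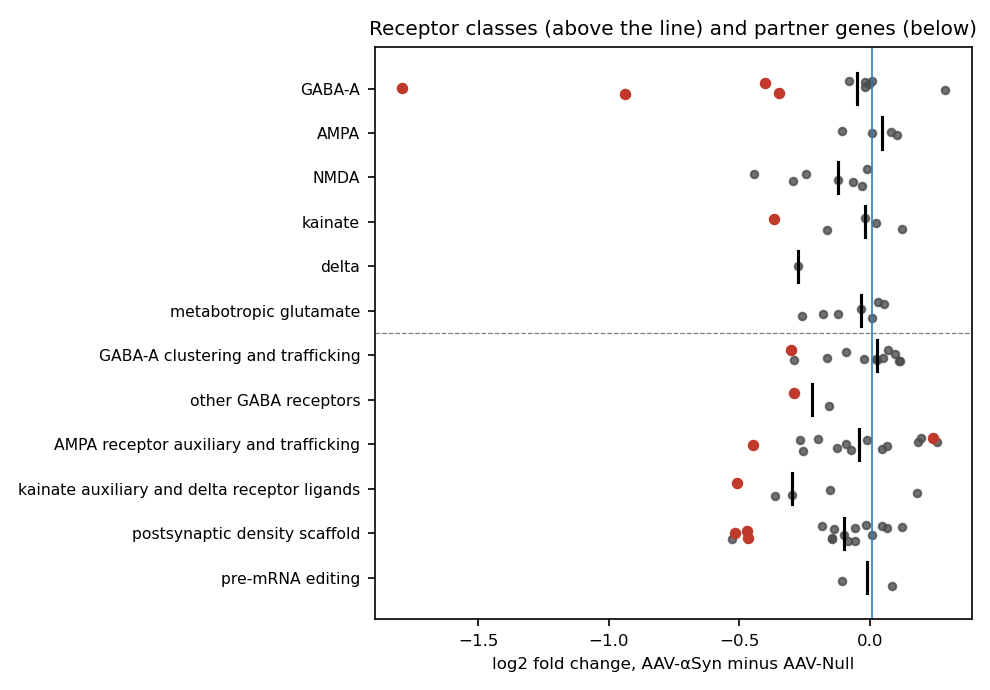
Log2 fold change (AAV-αSyn minus AAV-Null) of 34 tested receptor genes by receptor class (above the dashed line) and of the tested partner genes by list (below it), with 1 point per gene, red for an unadjusted p under 0.05, a black bar at the median of the points in the row and the blue line at the median of all probes (0.01). Red points lie to the left of 0 in every row that has any, except *Nsf* at 0.24 in the AMPA auxiliary row.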

How the data were processed

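Total RNA of the SN was hybridised on 8 one-colour arrays, 4 per group, each from the tissue of an individual rat per the methods, which state 3 arrays per group where 4 are used here. The authors deposited a scanner file per array with a processed intensity per spot, background-corrected by Feature Extraction (12.0.3.2 in the file headers, 11.5.1.1 per the labels) and not normalized between arrays, and a matrix of log2 values that they had quantile normalized. Replicate spread limits the precision.

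Control spots and spots marked as outliers were left out, and log2 intensity was quantile normalized and averaged by probe with R 4.3.3 and limma 3.58.1. A probe was above background on an array where at least 0.5 of its spots were well above it, and was tested if so on at least 1 array, which left 33853 of 45598 probes. AAV-αSyn was compared with AAV-Null by limma's lmFit and eBayes, two-sided, with Benjamini-Hochberg adjustment over all probes tested and 0.05 as the threshold. The 70 ways to divide 8 arrays into 4 and 4 gave the exact permutation p of a single gene, with 0.0286 as its smallest value. Intervals are 95% intervals from the fit. The method was tested on simulated data.

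Accessions were named through RefSeq (assembly GRCr8), which named 21229 probes. A gene is represented by its brightest probe. Results of a few member genes are counted in the totals and not reported here. Values on each array are given for genes with an unadjusted p under 0.05 or groups that do not overlap, and for the gene with the largest difference in each class. Members, partner lists and marker lists were chosen with earlier results of these data known, so no list is independent evidence.

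As alternatives, arrays were scaled by the 75th percentile or cyclic loess, the background was corrected by normexp (offset 50), the filter was dropped or set to 4 or 8 arrays, the deposited log2 matrix was used, outlier spots were kept, an intensity trend, robust eBayes or array weights entered the fit, probes of a gene were averaged, the replicate number or slide side was a block, and each array was left out.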

Additional observations from a re-analysis of the deposited data

Results flagged for a closer look

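*Grid1* in the AAV-Null group held 1 array far from the rest. AAV-Null array 3 read 8.29 and the other 3 read 6.97 to 7.12, so its gap to the nearest was 0.888 of the range of the group, above Dixon's critical value for 4 arrays. It was the 1 such case among 32 groups examined, where chance gives about 1.6. Without this array the log2 fold change of *Grid1* was 0.039 in place of −0.27.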

How the results depend on the processing

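No receptor gene passed the adjustment in the main analysis, in any of 14 processing alternatives or with any of the 8 arrays left out, and limma at an unadjusted p under 0.05 called 5 to 8 genes lower over the alternatives and 4 to 7 with an array left out. *Gabra4* and *Gabrg1* kept an unadjusted p under 0.05 throughout. Array weights gave 12 probes with an adjusted p under 0.05 in the whole table in place of 5, 4607 at an unadjusted p under 0.05 in place of 1908, and 1 receptor gene higher (*Grik4*, 0.16). The side of the slide as a block gave 3 probes past the adjustment. The replicate block gave 0. In both groups the replicate number was also the row of the array on the slide, so this block stands for that position too. Correlations of deviations were −0.0022 to 0.267 for equal numbers, and 2 of the 4 AAV-Null arrays correlated best with their own number. *Gabrd* kept its log2 fold change of −1.79 with this block, and its SE was 0.42 in place of 0.69. The SE also fell for *Gabra4* and *Gabrg1*, and it rose for *Gabrg3* and *Grik3*. *Grik3* lost its unadjusted call with this block and *Grin2b* gained one.

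With an array left out, the probes past the adjustment numbered 3 to 5, those at an unadjusted p under 0.05 numbered 1439 to 2800, and 0 to 1 receptor genes were higher, 1 without AAV-Null 3 (*Grik4*, 0.20) or AAV-Null 4 (*Gabra5*, 0.51). The kainate median was −0.089 to 0.0027. *Gabrd* ranged from −2.41 to −1.36, *Grid1* from −0.40 to 0.039 and *Gria1* from −0.24 to 0.012. *Grid1* turned to 0.039 without AAV-Null 3 and *Gria1* to 0.012 without AAV-αSyn 1. *Grik3* lost its unadjusted call in 4 of the 8 runs. *Grik3* also lost it with the 75th percentile and with an intensity trend, and had −0.14 with normexp. *Gabrg3* lost it with the mean over its probes. The cause was not tested.

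Of 22 genes near 0, 14 changed sign in at least 1 processing alternative (−0.21 to 0.11). The share of receptor genes below 0 was 71.8% in the main analysis and with the 75th percentile, 79.5% with cyclic loess and 66.7% with normexp. For signal over background, the lowest log2 intensity above background was 2.51 to 3.50, near which the second *Grm2* probe lay.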
